A study of Mus musculus with 20 samples.

Results

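The genes described here encode cytochrome P450 enzymes, and they were read on 20 whole-genome mouse microarrays, which covered salivary gland, whole duodenum as small intestine, and macrophages isolated from colon. A gene was a member if a non-control probe carried a name made of Cyp, a number, a letter and a number, which leaves out Cyp51. That rule found 87 genes among the 30199 gene names on the array, on 112 of its 39429 non-control probes. The study compared mice labelled Irgm1-/-, which lack an interferon-induced GTPase, with wild type (WT) mice, and its title asks which interferon-stimulated genes are enriched in several tissues of the former.

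All mice were on a C57BL/6 background, were kept specific pathogen-free and ate autoclaved chow. The salivary gland groups were 4 Irgm1-/- females aged 9 weeks and 4 WT females aged 6 to 7 weeks, so age and genotype cannot be told apart there. The small intestine and macrophage groups each held 3 Irgm1-/- mice (2 males and 1 female) and 3 WT females, all aged 6 to 8 weeks, and the same 6 animals gave both tissues. Males occurred in the Irgm1-/- groups alone. Each tissue was hybridized on 2 slides of its own, each with both genotypes, so tissue and slide cannot be told apart. P-values measure the spread between these animals.

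Cytochrome P450 enzymes are haem proteins of the endoplasmic reticulum or the mitochondrion that insert an oxygen atom into their substrates, with electrons passed on by a reductase. Families CYP1 to CYP3 mainly oxidise drugs, plant compounds and pollutants, CYP4 enzymes hydroxylate fatty acids and leukotrienes, and the remaining families build or break down steroids, bile acids, vitamin D and retinoic acid. In the gut, absorptive epithelial cells carry much of the family's drug oxidation, with the CYP3A and CYP2C enzymes prominent among them.

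A level below is log2 of the red (Cy5) processed signal minus the array's 75th percentile, taken over the 8448 probes above background on all 20 arrays. Levels of different genes come from different probes and are not set against each other. A gene was detected in a tissue if its probe was flagged well above background on 3 or more arrays of that tissue, in either genotype. The share of probes above background was 25.2% to 48.7% on salivary gland arrays, 52.6% to 62.1% on small intestine arrays and 57.0% to 74.2% on macrophage arrays. The lowest level that counted as above background was -6.70 to -3.86 in salivary gland, -8.56 to -8.15 in small intestine and -6.56 to -5.79 in macrophages, so a dim gene was more easily detected in small intestine.

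The tissue labels were set against marker lists. Salivary gland markers averaged 3.83 on WT salivary gland arrays (2.06 to 5.16) and 3.17 on Irgm1-/- ones (1.23 to 4.56), with 10 of 10 detected. Enterocyte markers averaged 1.03 on WT small intestine arrays, with 11 of 11 detected. On the macrophage arrays the markers went with the label only in part. There 11 of 12 macrophage markers were detected, and their mean level was -2.69 in WT (array range -3.82 to -1.95) and -3.79 in Irgm1-/- (-4.66 to -3.06), against -2.70 in WT whole salivary gland and -3.40 in WT small intestine. Fcgr1, Cd163 and Mertk averaged -2.35, -3.58 and -2.04 on the WT macrophage arrays, above their means in both other tissues, while Cd68 averaged -2.10 there against 1.23 in salivary gland. Colonic epithelial markers on the same arrays were all detected (10 of 10) and averaged 0.22 in WT (-0.26 to 1.02) and 0.48 in Irgm1-/- (0.08 to 0.74). Pancreatic enzyme genes averaged 2.83 in WT (1.91 to 3.91) and -5.31 in Irgm1-/- (-5.86 to -4.54) there. These arrays are therefore called the arrays labelled colonic macrophages, and the part of epithelial or pancreatic RNA in any result on them was not tested. Irgm1 itself read higher on the arrays labelled Irgm1-/-, by 2.63 in salivary gland (limma, Benjamini-Hochberg adjusted p = 0.000625), 1.38 in small intestine (adjusted p = 0.0756) and 0.79 in macrophages (adjusted p = 0.541). The sources used here do not say whether its probe lies in the deleted part.

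**Figure D1:**
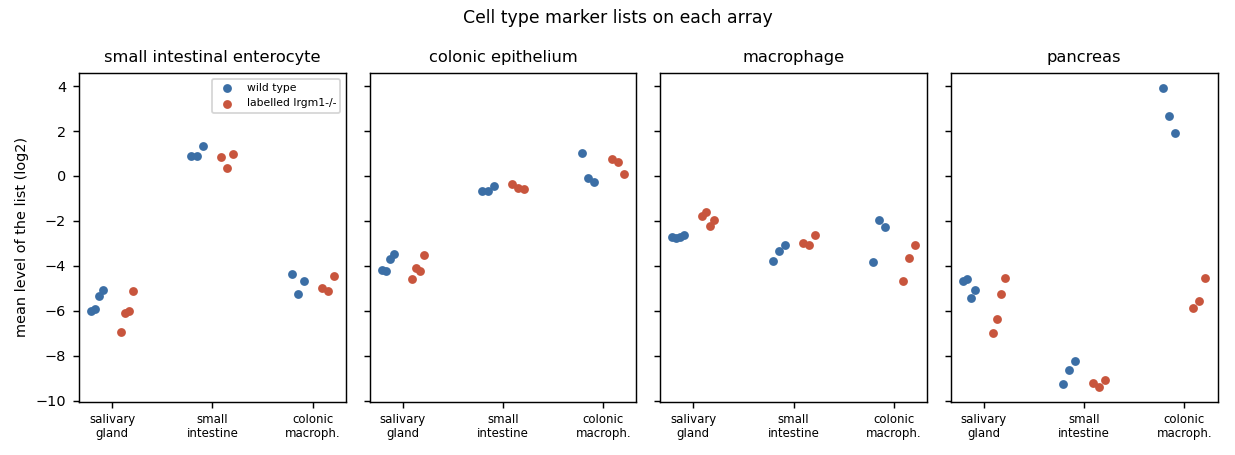
Mean level of each marker list on every array, by tissue and genotype (log2 signal minus the array's 75th percentile). The pancreatic list averaged 2.83 on the WT arrays labelled macrophages and -5.31 on the Irgm1-/- arrays, and the macrophage list averaged -2.69 there in WT, against -2.70 in WT salivary gland. Each point is 1 array.

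Some members are too alike to be read apart with confidence. Among the 112 probes, 4 pairs from different genes overlapped by 40 or more bases with over 80% identity. The probes used for Cyp2c37 and Cyp2c50 overlap by 40 bases and match at 35 of them, and those for Cyp4a10 and Cyp4a31 overlap by 47 bases and match at 44. Stretches of 30 bases from each, with the bases that differ in capitals, show how little separates these neighbours, whose signals may be shared.
Cyp2c37: aCactgACttttatccaGttcttttgcctC
Cyp2c50: aTactgCTttttatccaTttcttttgcctG
Cyp4a10: atcttccctcctttctgcaataaagTtccC
Cyp4a31: atcttccctcctttctgcaataaagGtccA

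The first question was which P450 genes each tissue held. Small intestine gave 58 of the 87 members (66.7%, against 59.6% of all genes on the array), the arrays labelled macrophages 60 (69.0% against 69.9%) and salivary gland 29 (33.3% against 40.3%). In bulk tissue, fewer cells of a type and less RNA per cell cannot be told apart. All 7 CYP3A genes, which encode the main drug-oxidising enzymes, were detected in small intestine, 3 on the macrophage arrays and 0 in salivary gland. The 3 rest on the probes used: the other Cyp3a11 probe was above background on 0 of 6 macrophage arrays, and the other Cyp3a59 probe on 5. Of the 13 CYP2C genes, which oxidise drugs and arachidonic acid, 11 were detected in small intestine, 12 on the macrophage arrays and 3 in salivary gland. CYP2D genes were detected 7, 9 and 4 times of 9 in the same order, and CYP4F genes, which inactivate leukotrienes, 7, 6 and 4 times of 8.

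All 3 tissues shared 25 members (28.7%, against 36.9% of all genes). Small intestine and macrophage arrays alone shared 22 (25.3% against 15.8%), and 3 more were shared by salivary gland and macrophage arrays (Cyp2a4, Cyp2c37 and Cyp2d9). Salivary gland and macrophage arrays alone shared 3.45% of members against 1.12% of all genes. The other Cyp2c37 probe, not used, had another pattern. It was above background on 0 of 8 salivary gland, 6 of 6 small intestine and 6 of 6 macrophage arrays. Only small intestine gave 10 (11.49% against 5.35%). These were Cyp1a1 and Cyp1b1, targets of the aryl hydrocarbon receptor, Cyp7b1, which hydroxylates oxysterols, and Cyp2b9, Cyp2c54, Cyp3a16, Cyp3a25, Cyp3a57, Cyp3a59 and Cyp4f39. The other Cyp3a59 probe, not used, was above background on 2 of 6 small intestine and 5 of 6 macrophage arrays. Both other Cyp2c54 probes were above background on 0 arrays of any tissue. Detection is a threshold: Cyp1b1 reached -3.78 on macrophage WT array 2.

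Another 10 members were detected on the macrophage arrays alone (11.49% against 16.0%). They included Cyp24a1, which breaks down active vitamin D, Cyp11b2, which makes aldosterone in the adrenal cortex, and Cyp2b13, Cyp2b19, Cyp2b23, Cyp2d34 and Cyp2w1. On those arrays 17.8% to 45.1% of 1169 olfactory receptor probes were above background, against 2.91% to 6.24% in small intestine and 4.28% to 8.47% in salivary gland. That list was chosen after seeing the data, and its part in the detection of these members was not tested. No tissue gave 16 members (18.4% against 22.5% of all genes), among them Cyp7a1 and Cyp8b1 of bile acid synthesis, Cyp11a1, which starts steroid synthesis, Cyp19a1, the aromatase, Cyp27b1, which activates vitamin D, Cyp26a1 and Cyp26c1, which clear retinoic acid, and Cyp1a2. Salivary gland alone gave 0 members (0.742% of all genes), and Cyp2b10 was the 1 member shared by salivary gland and small intestine only (1.15% against 1.51%).

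**Figure D2:**
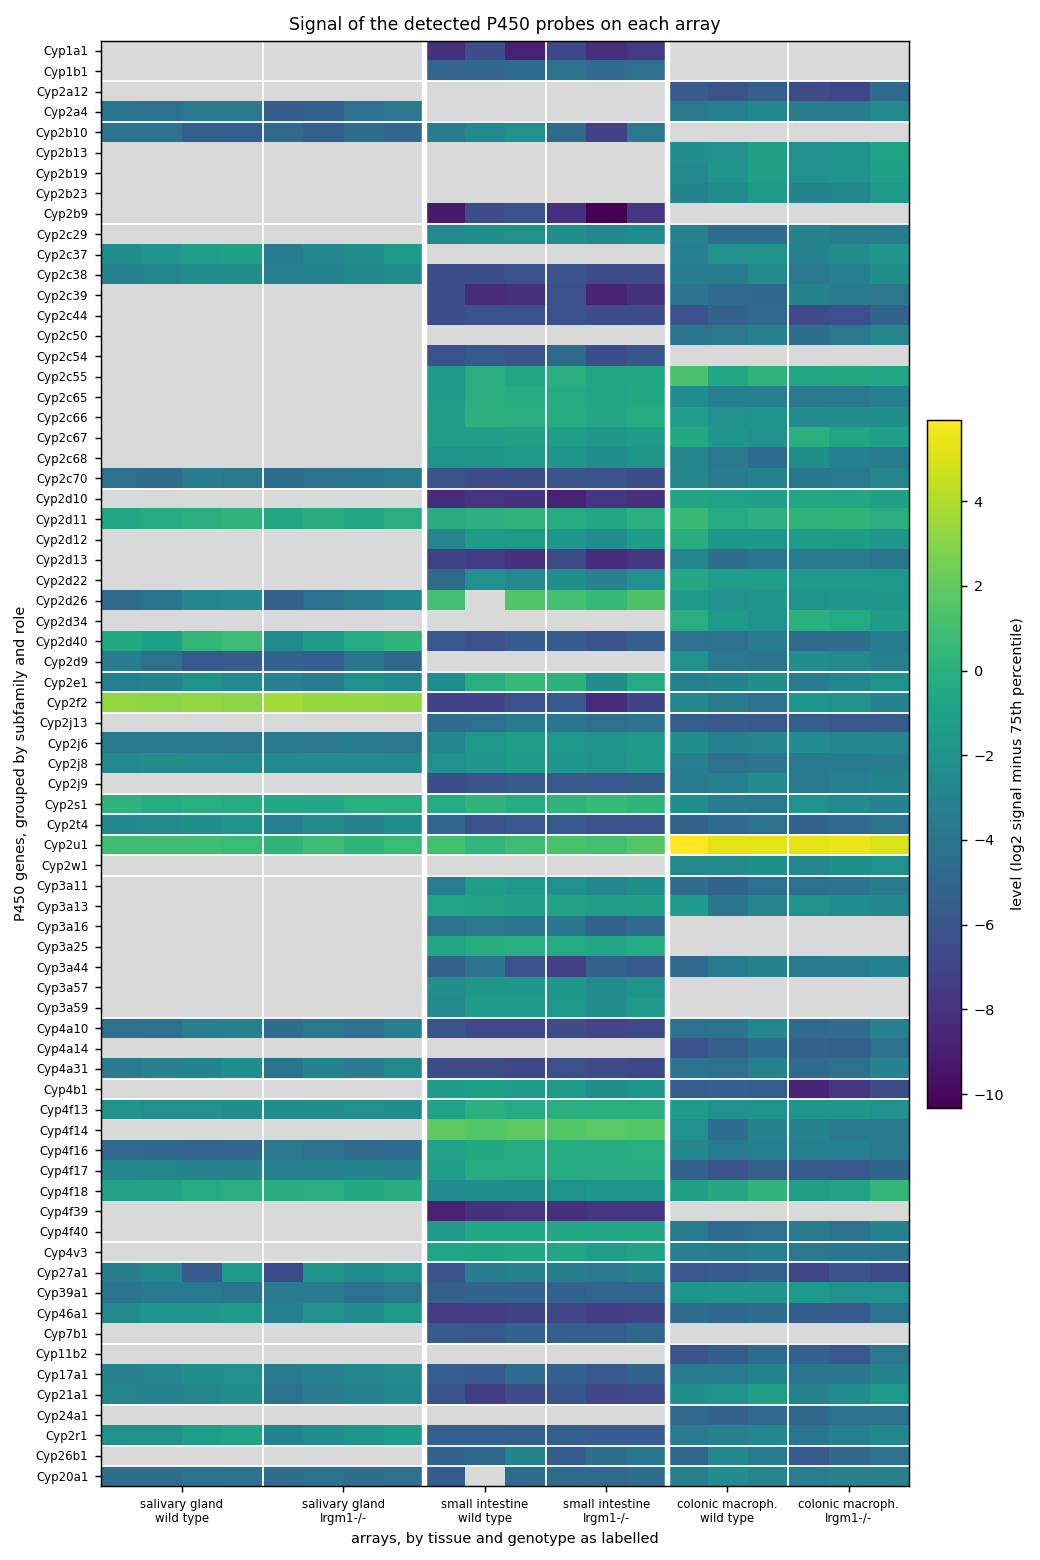
Levels of the P450 genes on each of the 20 arrays (log2 signal minus the array's 75th percentile, in colour), with arrays grouped by tissue and genotype. Grey marks a tissue where the gene was not detected or an array with no value, and colours compare arrays within a gene. In all, 29, 58 and 60 of the 87 members were detected in salivary gland, small intestine and the arrays labelled macrophages.

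Most CYP2C and CYP3A members lie in runs of neighbours, which leave out Cyp2c44 and Cyp3a13. RefSeq places 12 Cyp2c members side by side, of which 3 were detected in salivary gland, 10 in small intestine and 11 on the macrophage arrays. A run of 6 Cyp3a members gave 0, 6 and 2. RefSeq promoters (assembly GRCm38.p6, 250 bases before to 50 after the start, 300 in all) were matched for 66 of the 87 members. They were searched on both strands for TATAAA (the TATA box), CAAAGTCCA (a site bound by HNF4A), GTTAAT (an HNF1 half-site) and GCGTG (the aryl hydrocarbon receptor core), none of which contains another. TATAAA was in 28 of 66 member promoters (42.4%, against 15.7% of 27025 genes), CAAAGTCCA in 7 (10.6% against 0.555%), GTTAAT in 7 (10.6% against 8.24%) and GCGTG in 14 (21.2% against 35.2%). The 7 with CAAAGTCCA were Cyp2c65, Cyp2c67, Cyp2c68, Cyp2c70, Cyp3a11, Cyp3a16 and Cyp8b1, so 4 come from a single run of related neighbours. It was in 5 of the 26 matched members detected in small intestine and not in salivary gland, and in 1 of the 22 detected in salivary gland.

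4 promoters of intestinal members are shown, a set chosen after the matches were seen, with TATAAA and CAAAGTCCA in capitals. Cyp2c55, Cyp2c65 and Cyp2c66 stand next to each other, and the printed Cyp2c65 and Cyp2c66 windows share long stretches, though CAAAGTCCA is in the former and not in the latter. A match describes these letters and is not a measured site.
Cyp2c55, chr19:39006769-39007068, plus strand: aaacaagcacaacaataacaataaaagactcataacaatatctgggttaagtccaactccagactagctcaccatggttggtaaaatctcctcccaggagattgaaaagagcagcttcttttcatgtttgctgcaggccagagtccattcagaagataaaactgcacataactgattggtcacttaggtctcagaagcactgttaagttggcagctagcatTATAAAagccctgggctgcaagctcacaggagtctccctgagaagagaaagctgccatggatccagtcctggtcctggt
Cyp2c65, chr19:39060756-39061055, plus strand: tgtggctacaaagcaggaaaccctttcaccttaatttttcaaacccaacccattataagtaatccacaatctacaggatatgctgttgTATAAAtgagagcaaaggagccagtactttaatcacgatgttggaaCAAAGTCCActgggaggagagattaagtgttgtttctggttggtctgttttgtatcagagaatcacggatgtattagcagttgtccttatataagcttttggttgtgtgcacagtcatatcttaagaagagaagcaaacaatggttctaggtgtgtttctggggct
Cyp2c66, chr19:39113648-39113947, plus strand: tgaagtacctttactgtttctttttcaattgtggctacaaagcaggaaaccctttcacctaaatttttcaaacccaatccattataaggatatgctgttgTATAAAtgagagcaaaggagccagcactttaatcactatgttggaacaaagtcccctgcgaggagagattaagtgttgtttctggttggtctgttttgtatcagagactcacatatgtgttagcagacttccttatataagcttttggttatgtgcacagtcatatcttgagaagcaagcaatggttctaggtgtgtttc
Cyp3a11, chr5:145879805-145880104, minus strand: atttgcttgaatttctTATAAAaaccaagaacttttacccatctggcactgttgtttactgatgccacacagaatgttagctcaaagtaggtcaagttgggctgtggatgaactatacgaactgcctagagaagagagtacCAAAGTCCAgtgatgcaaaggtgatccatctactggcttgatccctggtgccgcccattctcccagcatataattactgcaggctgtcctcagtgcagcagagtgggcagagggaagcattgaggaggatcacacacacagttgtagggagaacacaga

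Small intestine was then compared with salivary gland in WT. Cyp4f14, a leukotriene hydroxylase, stood at 1.89, 1.64 and 1.87 on the 3 small intestine arrays (mean 1.80 ± 0.14, SD, n = 3). It was not above background on any of the 4 salivary gland arrays, which makes it at least 87.3-fold higher in small intestine. Such a bound sets the bright group's mean against the mean, over the dim group's arrays, of the lowest signal above background or the probe's own, whichever is higher. Of the 32 members detected in small intestine and not in salivary gland, 19 had a bound, from 1.34-fold to 87.3-fold with a median of 10.3-fold.

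Most CYP3A genes had such a bound. Cyp3a25 stood at -0.64, -0.18 and -0.11 in small intestine and was at least 20.3-fold higher than in salivary gland. Cyp3a13, at -0.70, -0.95 and -1.14, was at least 13.2-fold higher, and Cyp3a59, Cyp3a57 and Cyp3a11 at least 7.29-fold, 6.43-fold and 5.88-fold. The other Cyp3a59 probe gave -1.78. It was above background on 0 of 8 salivary gland and 2 of 6 small intestine arrays, so that value is no measured direction. Cyp3a44 allowed no bound. Among the CYP2C genes Cyp2c66 was at least 19.3-fold, Cyp2c65 at least 16.9-fold, Cyp2c55 at least 15.2-fold and Cyp2c67 at least 11.2-fold higher. Cyp4v3, a fatty acid hydroxylase, was at least 15.5-fold higher and Cyp4b1, which hydroxylates short fatty acids and activates some lung toxins, at least 10.3-fold. WT small intestine array 1 was the lowest of the 3 for Cyp2c55 (-1.41 against -0.15 and -0.61), Cyp3a11 (-3.38 against -1.26 and -1.65) and Cyp2e1 (-2.50 against -0.10 and 0.57).

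26 members were detected in both tissues, and 8 were higher and 13 lower in small intestine at an adjusted p under 0.05 (limma, Benjamini-Hochberg over all genes tested). Among all genes detected in both, 69.3% passed, 33.9% higher and 35.4% lower. The median difference was -1.11 over the 26 members and 0.01 over all such genes. The split was 7 higher and 14 lower with the percentile taken over all probes, where the median of all genes moved to -0.22, and also with normexp background correction, where it moved to -0.28.

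Cyp2f2, which activates naphthalene in mouse airway, was the member with the largest of these differences. It stood at 3.26, 3.10, 3.32 and 3.11 in salivary gland and at -7.04, -7.03 and -6.32 in small intestine, with no overlap. The difference, small intestine minus salivary gland, was -9.99 (SE 0.32, limma adjusted p = 6.15e-09). Cyp2d40 stood at -0.44, -1.01, 0.44 and 0.83 in salivary gland and at -5.88, -6.38 and -5.58 in small intestine, a difference of -5.90 (SE 0.42, limma adjusted p = 9.47e-07). Cyp46a1, which hydroxylates cholesterol and is best known in neurons, differed by -5.49 (SE 0.27, limma adjusted p = 8.73e-08). Cyp2r1, an activator of vitamin D, had -3.87. Its other probe gave -0.90, with 0 of 8 salivary gland and 6 of 6 small intestine arrays above background, so that value is no measured size. Cyp21a1, a steroid hydroxylase, had -3.82, and Cyp4f18, a leukotriene hydroxylase of neutrophils, had -1.83.

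In the opposite direction, Cyp2d26 stood at -4.66, -4.08, -2.87 and -2.58 in salivary gland and at 1.05 and 1.54 on the 2 small intestine arrays with a value. It was higher in small intestine by 4.84 (SE 0.54, limma adjusted p = 4.07e-05). Cyp4f16 stood at -4.76, -4.87, -5.0 and -4.98 in salivary gland and at -0.93, -0.44 and -0.30 in small intestine, higher by 4.35 (SE 0.25, limma adjusted p = 2.02e-07). It was above background on 2 of those 4 salivary gland arrays, so the size is uncertain. Cyp4f17 was higher by 2.32. Cyp2b10, a target of the constitutive androstane receptor, was higher by 2.04 (SE 0.58, limma adjusted p = 0.0106), but the same contrast on the Irgm1-/- arrays gave -0.33. Cyp2b10 too was above background on 2 of the 4 WT salivary gland arrays. Cyp2e1, the ethanol-oxidising enzyme, was higher by 2.03 (limma adjusted p = 0.0178), with overlapping groups, and its other probe gave -0.21. Its call was lost without small intestine WT replicate 2 (1.74, limma adjusted p = 0.067) or replicate 3 (1.41, limma adjusted p = 0.080), and with the mean of both probes (0.91, limma adjusted p = 0.281). Cyp2u1 and Cyp2s1, a fatty acid hydroxylase and an epithelial enzyme, differed by -0.15 and 0.024 and did not pass, but on the Irgm1-/- arrays they had 0.71 and 0.69 and passed (limma adjusted p = 0.0157 and 0.0410). On the Irgm1-/- arrays, which are other animals, 20 of the 21 members that passed had the same sign and 20 passed again. The share of all genes that did so was not counted.

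**Figure D3:**
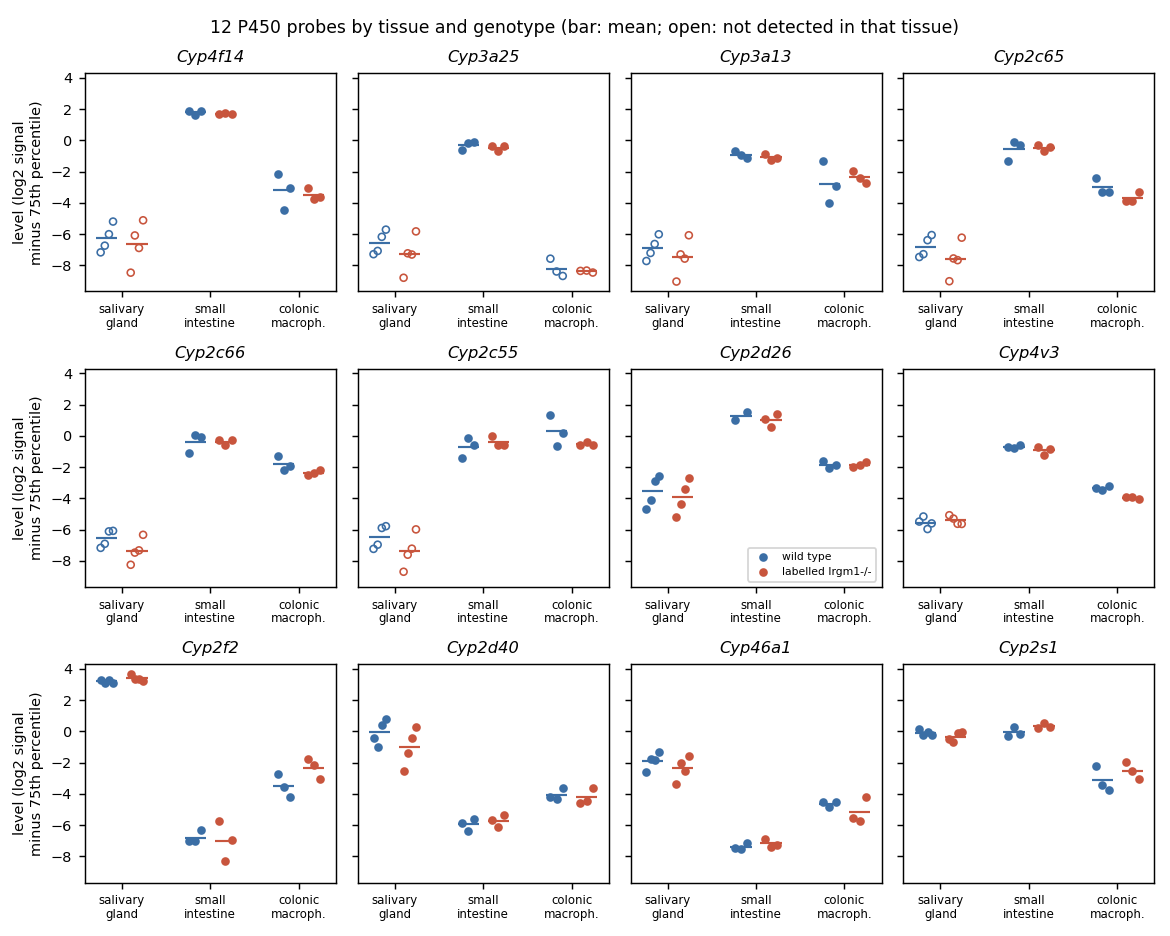
Level of 12 members on each array (points), by tissue and genotype, with group means as bars (log2 signal minus the array's 75th percentile); open points mark a tissue where the gene was not detected. Cyp2f2 lay between 3.10 and 3.66 in salivary gland and between -8.27 and -5.74 in small intestine, while Cyp4f14 was between 1.64 and 1.89 in small intestine.

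The arrays labelled macrophages were compared with small intestine next. 47 members were detected in both, of which 20 were higher and 19 lower on the macrophage arrays (limma adjusted p under 0.05). Among all genes detected in both, 76.3% passed, 47.9% higher and 28.4% lower, and the median was 0.76 over the members and 0.64 over all genes. The split depended on the scaling: 18 higher and 22 lower with the percentile over all probes (median of all genes -0.34), 10 and 22 after quantile normalization (-0.62), and 22 and 18 with normexp (0.74).

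Fatty acid hydroxylases of the CYP4F group were mostly lower and both CYP4A genes tested, Cyp4a10 and Cyp4a31, were higher (2.85 and 2.76), with near-identical probes. Cyp4f14 stood at -2.14, -4.47 and -3.02 on the macrophage arrays, below every small intestine array, a difference of -5.01 (SE 0.60, limma adjusted p = 1.65e-05). Of the 6 CYP4F genes tested 5 were lower, including Cyp4f17 (-4.96) and Cyp4f16 (-2.74), and Cyp4f18 was higher by 1.95. Cyp4b1 differed by -4.10, Cyp2s1 by -3.06 and Cyp4v3 by -2.65. Cyp3a25, not above background on the WT macrophage arrays, was at least 60.8-fold higher in small intestine, Cyp3a59 at least 21.8-fold and Cyp3a57 at least 19.3-fold. The other Cyp3a59 probe, above background on 2 of 6 small intestine and 5 of 6 macrophage arrays, went the opposite way, by 3.63. Cyp3a11 differed by -2.55 and Cyp3a13 by -1.84, both lower on the macrophage arrays. The other Cyp3a11 probe gave -6.51. It was above background on 6 of 6 small intestine and 0 of 6 macrophage arrays, so that value is no measured size. The Cyp3a13 call was lost without macrophage WT replicate 2 (-1.22, limma adjusted p = 0.074) and on the Irgm1-/- arrays (-1.31, limma adjusted p = 0.071).

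Higher on the macrophage arrays was Cyp2d10, which stood at -0.86, -0.90 and -1.0 there and at -8.20, -7.81 and -7.98 in small intestine (7.08, SE 0.36, limma adjusted p = 3.72e-08). In small intestine it was above background on 2 of the 3 WT arrays, near the lowest level that counted, so the size is uncertain. Cyp21a1 was higher by 4.83, Cyp39a1, an oxysterol hydroxylase, by 3.40 and Cyp2f2 by 3.31. Cyp2u1 stood at 5.92, 5.27 and 5.24 against 1.0, 0.35 and 0.88 (4.74, SE 0.26, limma adjusted p = 5.93e-08), but its 3 probes gave 4.74, 3.99 and -0.49. The probe used had no RefSeq match. The -0.49 came from the probe annotated to a RefSeq transcript, which was above background on 3 of the 6 macrophage arrays. Cyp2d40 was higher by 1.90, except after quantile normalization, where it gave -0.16, and its call was lost with the percentile over all probes (0.92, limma adjusted p = 0.065). Cyp2c55, known from colon, stood at 1.34, -0.63 and 0.18 against -1.41, -0.15 and -0.61, overlapping groups whose difference missed the threshold (1.02, SE 0.56, limma adjusted p = 0.117). The same animals gave both tissues, and with the animal as a fixed replicate block the difference passed (1.02, SE 0.30, limma adjusted p = 0.0202), as it did without macrophage WT replicate 2 (1.48, limma adjusted p = 0.0394). All 39 members that passed kept their sign on the Irgm1-/- arrays and 35 passed again, and here too the share of all genes was not counted.

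Against salivary gland, the macrophage arrays were higher for 9 and lower for 11 of 28 members (limma adjusted p under 0.05, against 74.3% of all genes, 38.3% higher and 36% lower), with a median of -0.06 against 0.06 over all genes. This split became 2 and 18 with the percentile over all probes (median of all genes -1.15), 2 and 16 after quantile normalization (-1.03) and 5 and 11 with normexp (-0.17). Cyp2f2 differed by -6.68 (SE 0.32, limma adjusted p = 6.53e-08) and Cyp2d40 by -4.0. Cyp2u1 was higher by 4.58, with 3.7 on another probe and -0.68 on the one annotated to RefSeq. Cyp39a1 was higher by 2.06. Cyp2c55 was not above background in salivary gland and was at least 30.8-fold higher on the macrophage arrays. The 3 tissue contrasts share the same WT arrays.

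**Figure D4:**
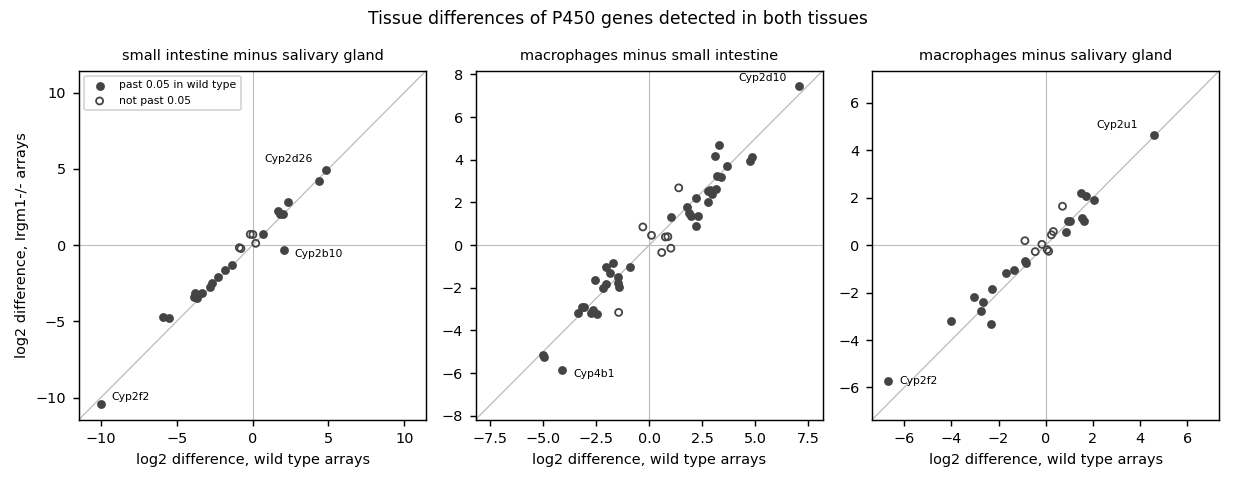
Log2 difference between tissues on the WT arrays (horizontal) against the same difference on the Irgm1-/- arrays (vertical), 1 point per member detected in both tissues, filled where the WT difference passed 0.05. The diagonal marks equal differences. Cyp2f2 stood at -9.99 for small intestine minus salivary gland, and Cyp2d10 was 7.08 higher on the arrays labelled macrophages than in small intestine. In the latter Cyp2d10 was above background on 2 of 3 WT arrays.

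Genes that serve or control the P450 enzymes were read from a fixed list. Por, the reductase that feeds electrons to them, stood at -1.16 in WT small intestine and -3.06 in WT salivary gland (1.90 higher, limma adjusted p = 2.59e-05). Hnf4a, an epithelial transcription factor, stood at 1.66 in small intestine and -2.35 on the macrophage arrays, and was not above background on the 4 WT salivary gland arrays. Nr1i2, the pregnane X receptor that controls CYP3A genes, stood at -0.62 and -3.31 and was likewise not above background in salivary gland. Listed genes detected in both tissues were counted at a limma adjusted p under 0.05. In small intestine 10 of 19 were higher and 5 lower than in salivary gland, against 33.9% and 35.4% of all genes. On the macrophage arrays 10 of 35 were higher and 19 lower than in small intestine, against 47.9% and 28.4% of all genes. Set against salivary gland, those arrays were higher for 6 of 19 and lower for 7, against 38.3% and 36% of all genes.

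The second question was whether genotype changed the P450 genes. In limma fits adjusted by Benjamini-Hochberg over all genes tested, 0 of 29 members passed 0.05 in salivary gland, where 3.51% of all genes did, 0 of 58 in small intestine (0.189%) and 0 of 60 on the macrophage arrays (0.0948%). At an unadjusted p under 0.05 there were 2, 3 and 5 members (6.90%, 5.17% and 8.33%), against 21.8%, 7.13% and 9.47% of all genes. Median differences, Irgm1-/- minus WT, were -0.20, -0.00 and -0.01 over the members and 0.03, 0.12 and 0.01 over all genes. Of the listed pathway genes, limma passed 0 of 19, 0 of 36 and 0 of 35, and 7, 4 and 9 had an unadjusted p under 0.05.

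In salivary gland, 24 of the 29 estimates were below 0. The median over all genes was 0.03 there, and the share of all genes below 0 was not counted. Cyp4f16 was the 1 member whose groups did not overlap (14.6% of all genes did not): -3.86, -4.30, -4.71 and -4.63 in Irgm1-/- against -4.76, -4.87, -5.0 and -4.98 in WT, with 3 and 2 arrays above background. The difference was 0.53 (SE 0.19, 95% interval 0.10 to 0.96, limma adjusted p = 0.161). Cyp2a4, a steroid hydroxylase, had -0.80 (limma adjusted p = 0.229) and Cyp2c37 -0.94 (limma adjusted p = 0.272). Cyp2f2 stood at 3.66, 3.36, 3.38 and 3.22 in Irgm1-/- and differed by 0.21 (95% interval -0.08 to 0.49). The array with the highest 75th percentile signal in this tissue, Irgm1-/- replicate 1 (11369 against 1574 for the dimmest), held the lowest level of Cyp2a4 (-5.52), Cyp2c37 (-3.71) and Cyp2d40 (-2.55). The salivary gland marker list also varied between arrays within each genotype, as given above. The part of array brightness or tissue composition in these differences was not tested.

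In small intestine 4 members did not overlap between genotypes (17% of all genes did not). Cyp2b10 stood at -4.71, -7.10 and -3.83 in Irgm1-/- and at -3.43, -2.60 and -2.15 in WT. Its difference was -2.49 (SE 0.86, 95% interval -4.60 to -0.38, limma adjusted p = 0.636), with -1.29 and -3.09 on the 2 slides. Cyp4f18 stood at -2.03, -1.77 and -1.77 against -2.56, -2.28 and -2.30, a difference of 0.52 (SE 0.15, limma adjusted p = 0.537). The other 2 were Cyp4f16 (0.37) and Cyp2c67 (-0.31). Intervals were narrow for 3 of the named intestinal members, at -0.42 to 0.21 for Cyp4f14, -0.64 to 0.31 for Cyp3a25 and -0.56 to 0.29 for Cyp3a13. Cyp2e1 had -2.53 to 2.24, with 2.64 and -1.54 on the 2 slides. Cyp1b1 had 0.49 (limma adjusted p = 0.676).

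On the macrophage arrays 7 members did not overlap (14.4% of all genes did not). Cyp4b1 stood at -5.48, -5.31 and -5.38 in WT, all above background, and at -8.63, -7.77 and -6.58 in Irgm1-/-, none above background. It was at least 2.04-fold lower in Irgm1-/-, and the fit, which reads the Irgm1-/- group at background, did not pass (limma adjusted p = 0.247). Cyp2c39 stood at -3.05, -3.60 and -3.87 against -4.16, -4.66 and -4.83 in WT (1.04, SE 0.31, limma adjusted p = 0.306). Cyp4v3 differed by -0.61 (limma adjusted p = 0.390), Cyp27a1, a mitochondrial sterol hydroxylase, by -0.92 (limma adjusted p = 0.398), Cyp2d22 by -0.63, Cyp2c66 by -0.56 and Cyp3a11 by 0.62. Cyp27a1 was above background on 1 of 3 Irgm1-/- and 2 of 3 WT arrays, so its value is no measured size. The other Cyp3a11 probe was not above background on any macrophage array. Cyp2f2, whose groups overlapped, stood at -1.76, -2.13 and -3.05 against -2.75, -3.53 and -4.17 (1.17, SE 0.47, limma adjusted p = 0.474). Mouse numbers were taken to pair the samples here from correlations in these same data, and the number also goes with slide and age. With the number as a replicate block 3 members passed, where 5.16% of all genes did: Cyp4b1 (limma adjusted p = 0.0284), Cyp2c39 (0.0318) and Cyp2f2 (0.0275). These 3 calls rest on that choice. The pancreatic and macrophage marker lists moved with genotype on these arrays, as given above, and their part was not tested.

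**Figure D5:**
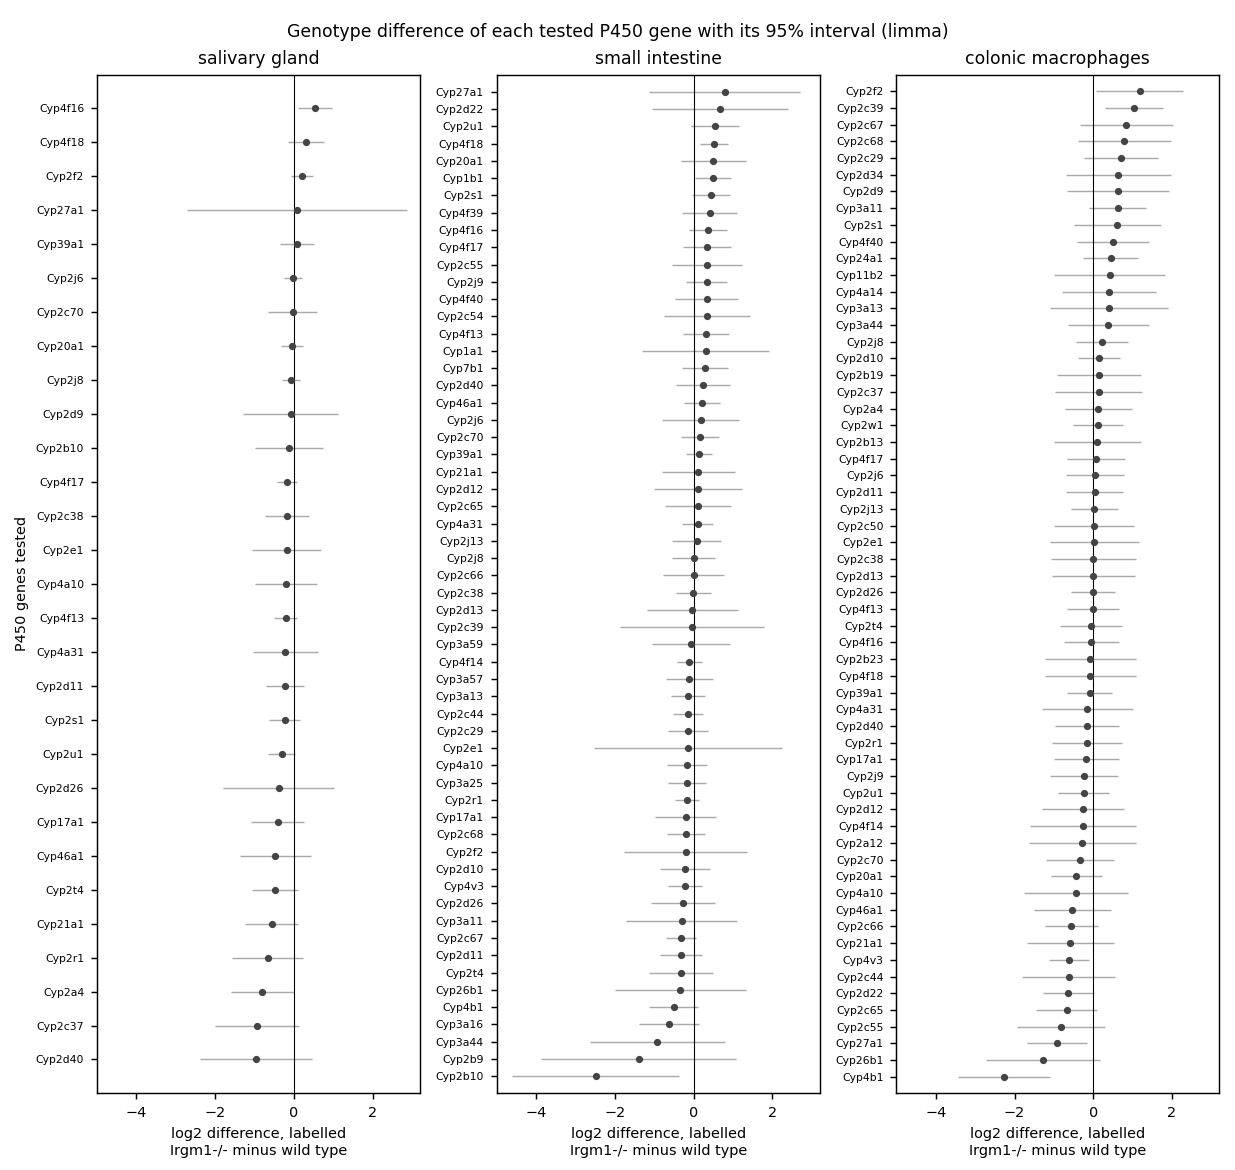
Difference between Irgm1-/- and WT for each member detected in a tissue (points, log2, with 95% intervals from limma, not adjusted for the number of genes). No member passed an adjusted p of 0.05, and the estimates farthest from 0 were Cyp2b10 in small intestine (-2.49) and Cyp4b1 on the arrays labelled macrophages, where its Irgm1-/- arrays were not above background and the point is not a measured size.

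The genotype effect itself was tested for a difference between tissues. In limma fits 0 of 26 members passed for salivary gland against small intestine (0.482% of all genes), 0 of 47 for small intestine against the macrophage arrays (2.03%) and 0 of 28 for salivary gland against the macrophage arrays (8.74%). The smallest adjusted p-values were 0.419, 0.178 and 0.319, and 2, 3 and 0 members had an unadjusted p under 0.05, against 8.26%, 14.1% and 18.9% of all genes.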

How the data were processed

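The authors deposited scanner files with Cy5 signal intensity per spot and flags for spots above background (Agilent Feature Extraction 11.5.1.1, design 026655, mm9 annotation, per the file headers). They also deposited a series table of processed values with a scaling that no source used here states. Per the labels' protocols, 5 µg of RNA was labelled with the Kreatech ULS kit. Members, gene lists and the rule for named genes were chosen with earlier results of these data known.

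From the processed red signal, outlier spots (0.434%) were left out, spots of a probe were averaged, each array was scaled to its 75th percentile over 8448 probes, and the brightest probe stood for a gene (20 members had more than 1). Cyp20a1 and Cyp2d26 had no value in small intestine WT replicate 2. Genes above background on 3 arrays of a tissue were tested with limma 3.58.1 in R 4.3.3 (lmFit, eBayes, Benjamini-Hochberg). Genotype was fitted within a tissue, tissues over the 10 WT arrays, and differences of genotype effects over all 20. Named members were the 4 smallest p-values by genotype and 6 brightest per tissue, the 5 largest differences each way between tissues, and a fixed set by role. Others given values in the text, such as members whose genotypes did not overlap, were chosen after their values were seen. The number of arrays limits the precision.

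Same-numbered mice deviated together in small intestine (r = 0.23, 0.28 and 0.33) and macrophages (0.45, 0.24 and 0.63), so the numbers were taken to pair them, and not in salivary gland (0.21, -0.09, -0.51 and 0.43). The genotype fits were tested on simulated data, with 100 genes changed by 1 log2 unit and 100 by 2. Of the former, 63 passed in salivary gland, 35 in small intestine and 0 on the macrophage arrays. Of the latter, 94, 72 and 36 passed. The simulated noise was normal and independent between genes, and the changed genes were picked at random from all genes detected. Variation shared between genes was not simulated, so these counts need not hold for the members on the real arrays. A count of 0 members by genotype therefore does not show that none changed. Alternatives covered scaling, normexp with offset 50, quantile normalization, filters, probe choice, slide, sex and the replicate block. They also covered the log2 of the values in the authors' deposited series table, and leaving out each replicate. Accessions matched RefSeq for 86 members, 85 under the same symbol.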

Additional observations from a re-analysis of the deposited data

Results flagged for a closer look

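In WT salivary gland, Cyp2u1 on replicate 4 stood apart at a level of 0.74, below the nearest other array at 0.93. The gap was 0.831 of the group's range, just above the critical value for 4 samples. Chance flags about 1 in 20 groups, and 25 groups were tested.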

How the results depend on the processing

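Among 1009 checks of 58 named tissue differences, 917 kept their direction and side of the threshold, 27 lost it, 27 gained it and 38 reversed. Among 222 checks of 12 named genotype differences, 218 kept theirs and 4 became past the threshold. The cause of each change was not tested.

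The counts of members by genotype changed in these settings. With the mouse number as a replicate block, salivary gland gave 2 (Cyp2c37, -0.94, adjusted p = 0.0446, and Cyp2r1, -0.66, adjusted p = 0.0457, in limma, where 6.16% of all genes passed), although the numbers were not taken to pair the mice there. With that block macrophages gave 3, and small intestine kept 0. With all 20 arrays in 1 fit, macrophages gave 1 (Cyp4b1, limma adjusted p = 0.00849, 3.85% of all genes). Without a filter, the genotype effect of salivary gland against macrophages gave 1 (Cyp4b1, limma adjusted p = 0.0363, 2.17% of all genes), but Cyp4b1 was above background on 0 WT and 1 Irgm1-/- salivary gland arrays and on 0 Irgm1-/- macrophage arrays, so that value is no measured size. Leaving out each replicate gave 0 to 0 members by genotype in each tissue, and 19 to 21, 36 to 41 and 14 to 18 by tissue, in the order of the text. Other settings gave 21 to 22, 32 to 40 and 16 to 21.

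The reversals were as follows, with most in differences that did not pass. For small intestine against salivary gland, the percentile over all probes gave -0.018 for Cyp2d11 and -0.20 for Cyp2s1. Cyp2s1 was -0.023 with median scaling, -0.075 after quantile normalization and -0.48 with normexp and, leaving out each replicate, ranged from -0.15 to 0.14, below 0 without small intestine WT replicate 2 or salivary gland WT replicate 2 or 4. The Irgm1-/- arrays gave -0.33 for Cyp2b10 and 0.71 for Cyp2u1. Leaving out each replicate, Cyp2u1 ranged from -0.28 to 0.045, above 0 without small intestine WT replicate 2, and Cyp27a1 from -1.65 to 0.042, above 0 without small intestine WT replicate 1.

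For macrophages against small intestine, Cyp26b1 was -0.39 with the percentile over all probes, -0.98 after quantile normalization and -0.35 on the Irgm1-/- arrays. Cyp2d11 was -0.87, -0.30 and -0.013 with all probes, quantile and normexp, and ranged from -0.16 (without macrophage WT replicate 1) to 0.33. Cyp2d40 was -0.16 after quantile normalization. Cyp2c55 was -0.15 and Cyp2c67 0.85 on the Irgm1-/- arrays, and Cyp2c67 ranged from -0.79 to 0.023, the latter without macrophage WT replicate 3.

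For macrophages against salivary gland, with all probes and quantile, Cyp2a4 was -0.50 and -0.81, Cyp2d11 -0.89 and -0.18, and Cyp4f18 -1.08 and -0.46. Cyp4f18 was also -0.046 with normexp and -0.26 on the Irgm1-/- arrays, and ranged from -0.22 to 0.40, below 0 without macrophage WT replicate 3 or salivary gland WT replicate 1. Cyp2c37 was 0.42 with the mean of all probes and 0.18 on the Irgm1-/- arrays. Cyp2e1 was 0.032 on the Irgm1-/- arrays, and ranged from -0.45 to 0.086, above 0 without macrophage WT replicate 1 or salivary gland WT replicate 3.

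Salivary gland arrays had the fewest probes above background, which limits what was detected there.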
